A study of Mus musculus with 2 samples.

Results

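Pericytes low in Myh11 were examined in the stromal vascular fraction (SVF) of mouse gonadal white adipose tissue (gWAT), as single cells of 1 control library and 1 Adipo-Pgam1 KO library. The cells were chosen by raw counts of unique molecular identifiers (UMIs, the tags that mark single captured RNA molecules). Barcodes had to show 500 or more genes, with mitochondrial UMIs not above 10%. Of these, a barcode was taken when Rgs5, Notch3, Kcnj8 and Abcc9 summed to at least 3 UMIs and Rgs5 had at least 1. Myh11 had to be at 0 or 1 UMI, and Pdgfra, Ptprc, Cdh5 and Msln, which mark fibroblasts, leukocytes, endothelial cells and mesothelial cells, at 0. The rule was met by 94 of 4839 filtered cells, 88 of 3881 in the control and 6 of 958 in the KO library. The levels of these 9 genes in the chosen cells therefore follow from the rule and are given only as a description.

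Pericytes are mural cells that lie inside the basement membrane of capillaries, in direct contact with the endothelium, and vascular smooth muscle cells are the mural cells of arteries and veins. Smooth muscle carries a full contractile apparatus with the heavy chain Myh11 and the actin Acta2, while capillary pericytes carry little of it. Endothelial cells recruit pericytes through PDGF-B and its receptor Pdgfrb and instruct mural cells through Notch3, and the inward rectifier Kcnj8 with the sulfonylurea receptor Abcc9 forms the ATP-sensitive potassium channel of pericytes.

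Control mice were littermates, labelled wildtype by the submitters and described in the methods of the study as Pgam1 flox/flox without Cre. Adipo-Pgam1 KO mice carried floxed Pgam1 and Adipoq-Cre, in which the adiponectin promoter drives Cre in adipocytes. All mice were male, on C57BL/6, aged 13 weeks by the labels. The SVF was released with collagenase and Dispase and freed of erythrocytes by lysis, and buoyant mature adipocytes are lost from such a fraction; the sources used here do not say how many mice went into a library. With 1 library per genotype no difference between genotypes could be tested, and all intervals are exact 95% intervals that cover counting error only.

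The control library held 8522 barcodes and 42859406 UMIs, and the KO library 2730 barcodes and 13821581 UMIs. The libraries shared 9 barcodes, none of them a pericyte. Pericytes were 2.27% of filtered cells in the control (exact Clopper-Pearson interval 1.82% to 2.79%) and 0.626% in the KO library (0.230% to 1.36%). Together the 88 control pericytes gave 459462 UMIs, with 832 to 12965 per cell and a median of 4822, and the 6 KO pericytes gave 18256 UMIs with a median of 1510. A further 157 control and 26 KO barcodes met the marker rule but failed the filter, with a median mitochondrial share of 19.3% and 22.7%, so the share depends on a filter that both libraries pass at different rates. Fewer pericytes in the tissue and fewer pericytes released or captured cannot be told apart in these libraries.

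Pdgfrb, a PDGF receptor of mural cells, was not used by the rule and was found in 80 of 88 control cells, with 0 to 28 UMIs per cell and a median of 11. Control fibroblasts carried it too, with 2051 UMIs over the class, so it is not confined to mural cells. The 4 marker genes summed to a median of 71.5 UMIs per control cell, far above the minimum of 3, and only 2 control cells sat exactly on it. These 2 cells held 6 Rgs5 UMIs and none of Notch3, Kcnj8 or Abcc9. The 18 control cells just outside, with a sum of 1 or 2, held 3 Pdgfrb UMIs between them (34.9 CPM, the counts scaled to a total of 1000000 UMIs), against 2155 CPM in the pericytes and 235 CPM in fibroblasts. The Myh11 limit lay in a populated range, with 52 control cells at 0 UMIs, 36 at 1 and 18 at 2.

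RNA of other cell types varied by list in the control pericytes. The 11 fibroblast genes listed summed to 3900 CPM, against 43040 CPM in fibroblasts, and all 11 were found. The erythroid list gave 2591 UMIs, of which 2048 lay in 1 cell, and the macrophage list 288 UMIs, of which 210 lay in 1 cell. The lymphocyte list had 9 UMIs, the mesothelial list 11, the Schwann cell list 4 and the adipocyte list 23 over all 88 cells. The endothelial list is taken up with the lipid genes.

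Genes that set the pericytes apart from 4 other classes were ranked by the smallest of their log2 ratios over smooth muscle cells, fibroblasts, endothelial cells and leukocytes of the control library, among 1755 genes with at least 50 UMIs in pericytes. These ratios describe the chosen cells and are no test. Cells with the pericyte markers and 2 to 5 Myh11 UMIs were not a class of their own here and are taken up below. The highest rank went to Gipr, the receptor of the incretin hormone GIP, with 104 UMIs in 52 of 88 pericytes (226 CPM) against 9.15 CPM in smooth muscle cells, 0.457 in fibroblasts, 1.53 in endothelial cells and 2.51 in leukocytes. Ffar2, a receptor for short-chain fatty acids, came next, with 170 UMIs in 52 cells (370 CPM) against 17.0 CPM in smooth muscle cells. Gipr lies at chr7:19156061-19166127 and Ffar2 at chr7:30818348-30823775 (GRCm38). The smallest ratios over the 4 classes were 4.63 for Gipr and 4.44 for Ffar2 on the log2 scale.

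Several of the 15 leading genes encode receptors or parts of their signalling. Agtr1a, an angiotensin II receptor, was found in 75 of 88 cells at 881 CPM, with a smallest log2 ratio of 2.77. Ptger2, a prostaglandin E2 receptor, reached 235 CPM in 55 cells (2.68), and the adenylyl cyclase Adcy3, which makes cyclic AMP, 233 CPM in 55 cells (2.89). Slc12a2, a sodium, potassium and chloride cotransporter, reached 409 CPM in 58 cells (2.86).

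The remaining leading genes were of other kinds. They were the carboxypeptidase Cpm (161 CPM, 3.49), the transcription factor Sox11 (222 CPM, 3.01), the kinase Dapk2 (187 CPM, 2.92), the sulfotransferase Chst1 (329 CPM, 2.58), Vstm4 (272 CPM, 2.53), Fam13a (120 CPM, 2.61), 1810011H11Rik (311 CPM, 3.50) and Gm14964 (226 CPM, 3.04). Gm14964 is annotated antisense, and its reads could not be told apart from those of an overlapping gene here. Kcnj8, a gene of the rule, ranked 10 with 1678 CPM (2.83). In the KO library the CPM of all 15 genes, Kcnj8 of the rule among them, was also highest in the 6 pericytes, on only 1 to 6 UMIs per gene. Gipr had 1 UMI there (54.8 CPM), against 5 UMIs in KO smooth muscle cells (41.8 CPM). The 4 KO cells with the pericyte markers and 2 to 5 Myh11 UMIs held 13 Gipr UMIs (639 CPM).

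**Figure D1:**
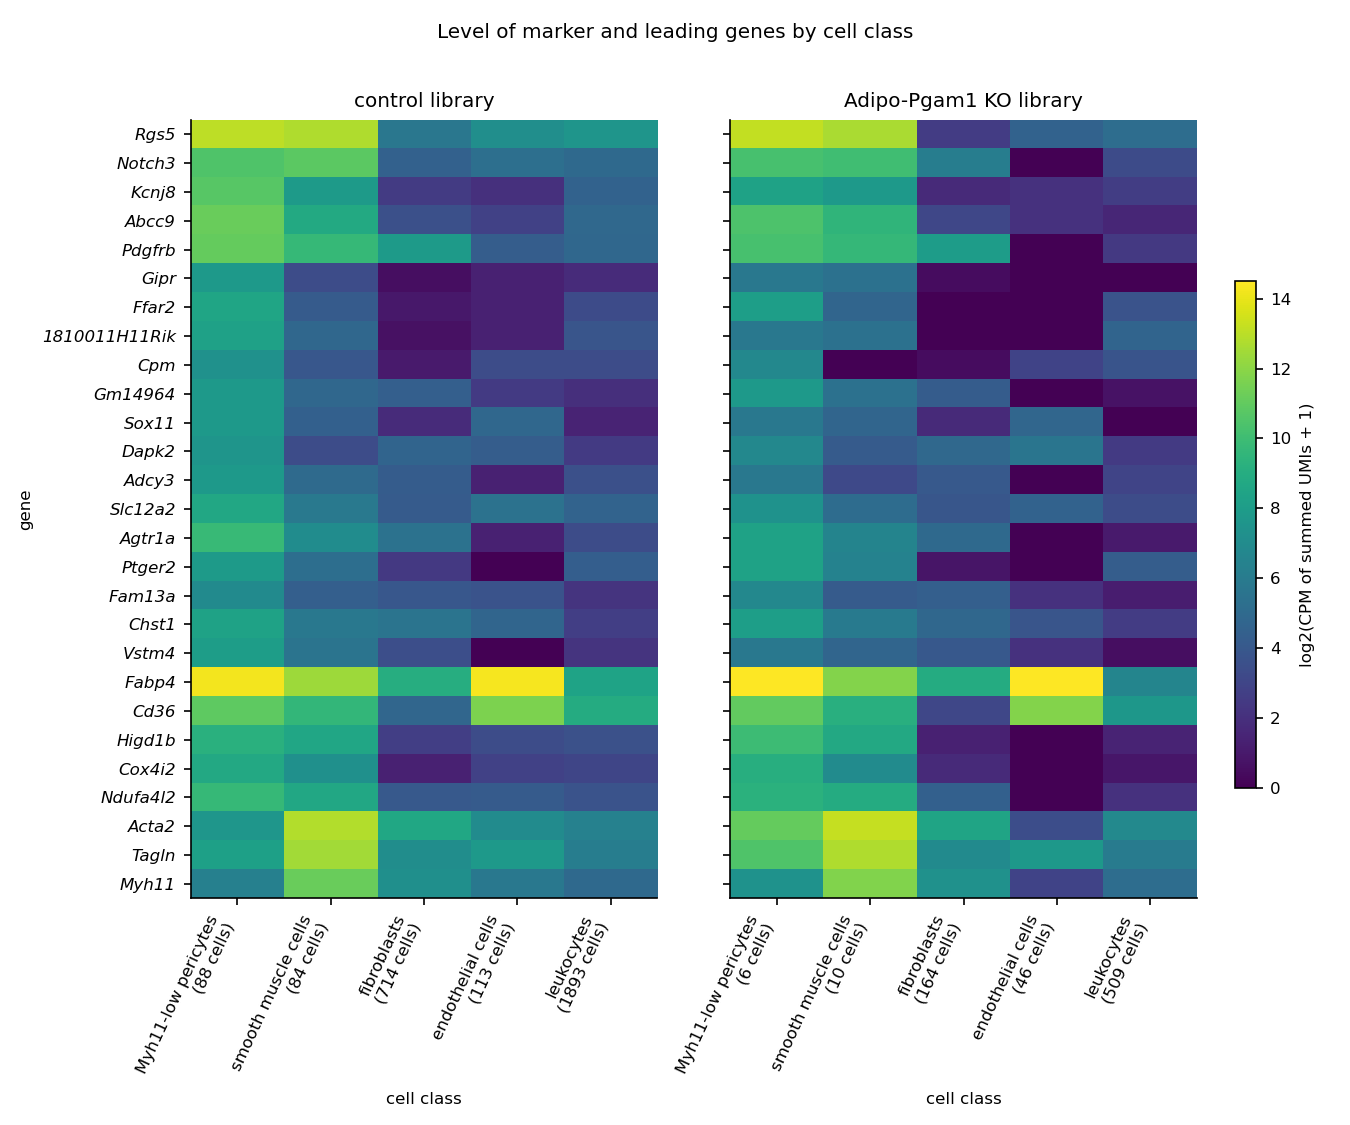
Level of marker, leading, lipid, mitochondrial and contractile genes (rows) in each cell class (columns) as log2(CPM of summed UMIs + 1), control library left and Adipo-Pgam1 KO library right, with the number of cells of each class. Gipr, Ffar2, Agtr1a and Ptger2 are brightest in the pericyte column of both panels, Fabp4 is as bright in pericytes as in endothelial cells, and Acta2 is dim in the 88 control pericytes and brighter in the 6 KO pericytes. In the KO pericytes Gipr rests on 1 UMI.

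Smooth muscle cells of the same library, with at least 3 Myh11 UMIs and at least 3 of Acta2 and Tagln, were the nearest class. There were 84 of them with 764775 UMIs and a median of 9012 per cell. Of these, 73 also met the Rgs5 and marker sum limits of the rule and stood outside it by Myh11. Of 4392 genes with at least 50 UMIs over both classes, 386 were at least 2-fold higher in pericytes (8.79%) and 353 lower by the same fold (8.04%), and the median log2 ratio was 0.11. These shares are the background for every list count against smooth muscle cells below. List members needed only 10 UMIs, so the minimum is unlike. Because the classes were chosen by Myh11, Acta2 and Tagln, the contrast is a description and these genes were left out of the contractile list in this comparison.

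The contractile genes were far lower in pericytes than in smooth muscle cells. Of 24 measured members 21 were at least 2-fold lower and 0 higher, with a median log2 ratio of -2.10. Cnn1, the calponin of differentiated smooth muscle, had 0 UMIs in pericytes and 58 in smooth muscle cells. Tpm1, a tropomyosin, stood at 383 against 2852 CPM (-2.90, -3.13 to -2.67), and Myl9, the regulatory myosin light chain, at 760 against 2920 CPM (-1.94, -2.11 to -1.78). Lmod1, an actin nucleator, had 17 against 348 UMIs (-3.62). Myosin light chain was thus lower but still present, while the calponin was not detected. In the KO library 8 of 19 members were at least 2-fold lower in pericytes and 1 was higher, with a median of -0.61, where 24% of the 379 genes tested were lower and 8.44% higher.

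The genes highest against smooth muscle cells were Adam23, a disintegrin-domain membrane protein (76 against 3 UMIs, log2 ratio 5.40, 3.80 to 7.71), Gipr (4.63), Ffar2 (4.44), Cd300lg (4.38), Dapk2 (4.35), Emcn (4.25), the ceramidase Acer2 (4.06), Tmem86a (3.88), Limd2 (3.71) and Plat (3.59), the tissue plasminogen activator. The lowest were the two-pore potassium channel Kcnk3 (4 against 287 UMIs, -5.43, -7.32 to -4.06), Acta2 (-5.18), Nrip2 (0 against 169 UMIs), Myh11 (-4.91), Sncg (-4.65), Sorbs2 (-4.63), Cdh13 (2 against 120 UMIs), Colec11 (-4.55), Nrarp (-4.55) and Olfml2b (-4.35). For Nrip2 the log2 ratio was at most -5.08, taking 3 UMIs over the class as the limit that a count of 0 allows.

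Pericyte markers outside the rule were higher on balance, though most did not pass the fold. Of 29 measured members 12 were at least 2-fold higher in pericytes and 2 lower by that fold, with a median log2 ratio of 0.79. Cygb, the globin of stellate cells and pericytes, stood at 1815 against 399 CPM (2.19, 2.00 to 2.38), Steap4, a metalloreductase, at 1730 against 485 CPM (1.83, 1.66 to 2.02) and Cspg4, the NG2 proteoglycan, at 316 against 132 CPM (1.26, 0.88 to 1.64). Gja4, a gap junction protein, stood at 418 against 177 CPM (1.24). Des, the intermediate filament desmin, was lower in pericytes at 296 against 615 CPM (-1.05, -1.34 to -0.78).

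**Figure D2:**
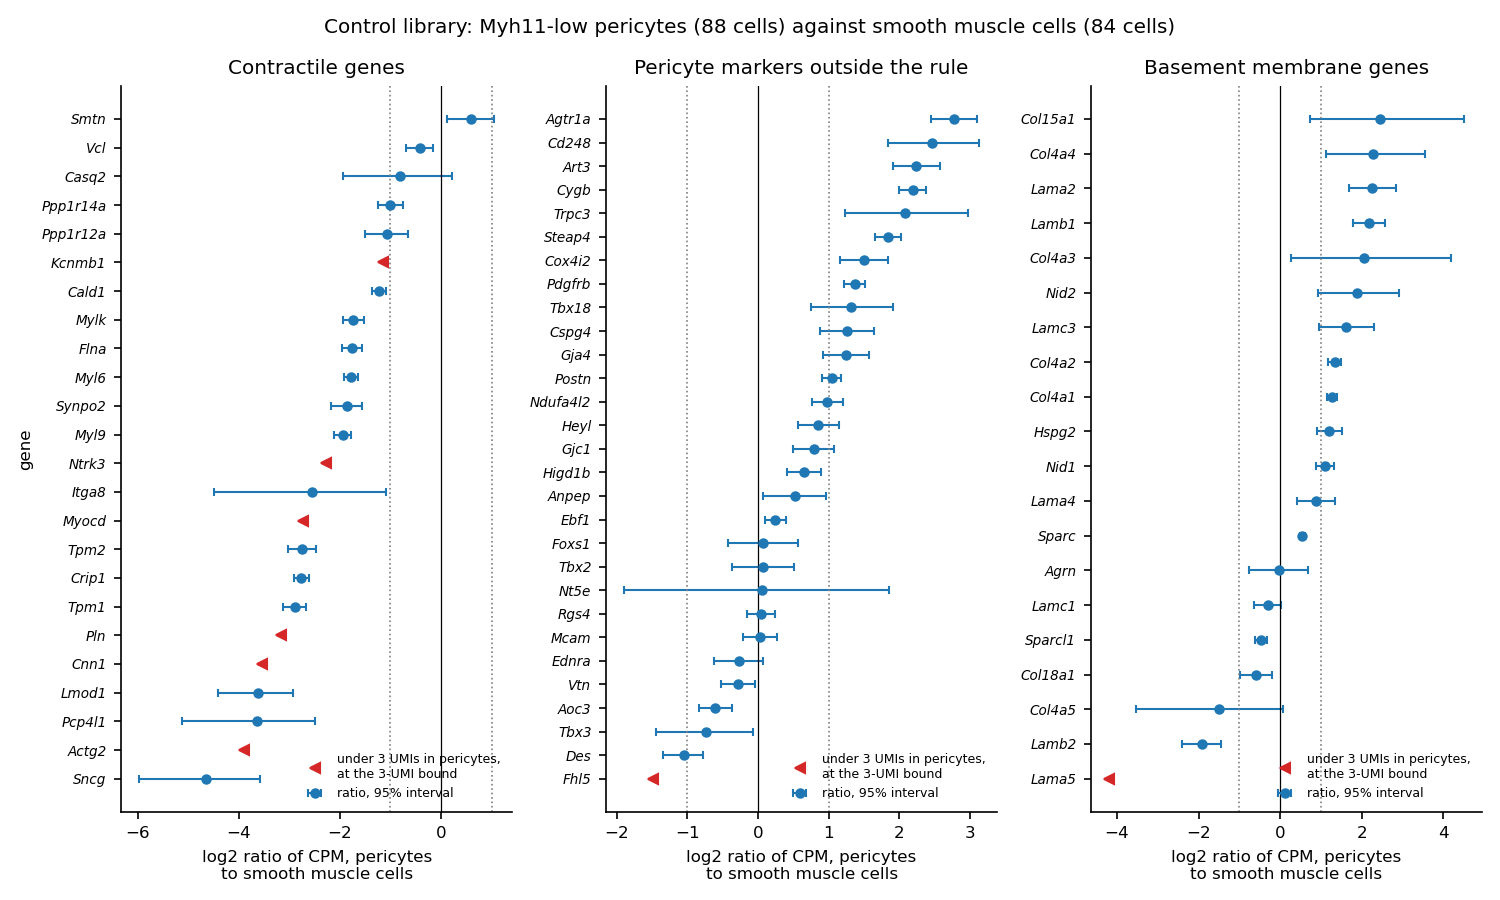
Log2 ratio of CPM between Myh11-low pericytes and smooth muscle cells of the control library for each measured gene of 3 lists, with exact 95% intervals of counting error and dotted lines at 2-fold. Red triangles mark genes with under 3 UMIs in pericytes, drawn at the 3-UMI bound, so their true ratio lies at or left of the mark. The contractile genes lie left of 0 except Smtn, and most basement membrane genes lie right of it.

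The vasoactive receptors split between the mural classes. Of 21 measured members 7 were at least 2-fold higher in pericytes and 9 lower, against 8.79% and 8.04% of all genes. Agtr1a stood at 881 against 129 CPM (2.77), the sphingosine phosphate receptor S1pr3 at 361 against 112 CPM (1.68, 1.30 to 2.08), the prostacyclin receptor Ptgir at 128 against 44.5 CPM (1.53) and the endothelin B receptor Ednrb at 207 against 86.3 CPM (1.26). The endothelin A receptor Ednra was near equal at 224 against 271 CPM (-0.27, -0.63 to 0.08). The ATP-gated channel P2rx1 had 0 against 41 UMIs, and Ramp1, a subunit of the CGRP receptor, 3 against 56 UMIs (-3.49). The thromboxane receptor Tbxa2r had 3 against 34 UMIs (-2.77), and the adrenoceptor Adra2a 13 against 83 UMIs (-1.94).

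Of 21 measured ion channel genes 5 were at least 2-fold higher in pericytes and 7 lower, against 8.79% and 8.04% of all genes. Kcnj8 stood at 1678 against 237 CPM and Abcc9 at 2335 against 452 CPM, values that the rule raised in pericytes. Their relatives of pancreatic and muscle ATP-sensitive channels were not detected in control pericytes, with 0 Kcnj11 UMIs beside 771 of Kcnj8 and 0 Abcc8 UMIs beside 1073 of Abcc9, values again raised by the rule. Smooth muscle cells likewise had 0 Kcnj11 UMIs beside 181 of Kcnj8 and 2 Abcc8 UMIs beside 346 of Abcc9. Kcnk3, a background potassium channel, and Kcna5, a voltage-gated one (0 against 28 UMIs), were near absent from pericytes. After each cell was thinned to 2000 UMIs, a Kcnj8 UMI was found in 64 of 74 pericytes, 24 of 80 smooth muscle cells, 5 of 700 fibroblasts and 0 of 98 endothelial cells; before thinning it was found in 72 of 88 pericytes and 47 of 84 smooth muscle cells.

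Kcnj8 (chr6:142564837-142571614, minus strand) and Abcc9 (chr6:142587862-142702315, minus strand) are neighbours, 16247 bases apart in GRCm38. Their promoters are shown with that of Acta2 because the channel genes were high and Acta2 low in these cells. The windows run from 250 bases before to 50 after the start site in RefSeq on GRCm38.p6, read 5′ to 3′ on the strand of the gene, and capitals mark TGGGAA, the core that the Notch effector RBPJ binds, searched on both strands. The windows are chr6:142571565-142571864, chr6:142702225-142702524 and chr19:34255324-34255623, all on the minus strand.
Kcnj8: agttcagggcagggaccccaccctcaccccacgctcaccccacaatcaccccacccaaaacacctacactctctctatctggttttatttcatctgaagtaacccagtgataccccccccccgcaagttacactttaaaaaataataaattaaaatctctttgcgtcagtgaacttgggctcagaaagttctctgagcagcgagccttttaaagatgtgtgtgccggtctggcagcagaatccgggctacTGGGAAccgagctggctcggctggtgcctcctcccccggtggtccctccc
Abcc9: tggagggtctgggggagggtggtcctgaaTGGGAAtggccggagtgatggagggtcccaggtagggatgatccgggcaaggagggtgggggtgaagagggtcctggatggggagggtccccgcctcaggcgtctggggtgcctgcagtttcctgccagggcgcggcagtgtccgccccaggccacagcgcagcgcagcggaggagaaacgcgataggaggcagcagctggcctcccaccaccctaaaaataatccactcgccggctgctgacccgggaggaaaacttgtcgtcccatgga
Acta2: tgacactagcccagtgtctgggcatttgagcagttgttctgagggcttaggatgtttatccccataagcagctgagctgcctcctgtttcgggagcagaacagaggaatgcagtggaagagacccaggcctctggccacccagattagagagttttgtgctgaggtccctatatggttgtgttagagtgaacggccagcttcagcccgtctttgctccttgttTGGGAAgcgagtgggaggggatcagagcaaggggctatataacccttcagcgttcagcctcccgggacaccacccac
Each window held the core once, at the start site in Kcnj8, 221 bases upstream in Abcc9 and 27 bases upstream in Acta2. The core was held by 25.6% of all 32851 promoter windows, by the windows of 7 of 16 genes of the pericyte list and by those of 7 of 23 genes of the contractile list. A CArG box, the site of serum response factor, was searched only in the strict form CCWWWWWWGG, where W is A or T. That form was held by 1.63% of all windows, by those of 3 of 23 contractile genes (Myl6, Myl9 and Vcl) and by 0 of 16 in the pericyte list. Sites a single base off were not counted. The Acta2 window, with 0 strict matches, holds ccctatatgg and ccttgtttgg, each a single base off, and the latter overlaps its capitals. The lists are counted by gene, with a match in any window of the gene. The 16 pericyte genes had 24 windows and the 23 contractile genes 25, so these shares are not on the scale of the share over all windows. A match is a description of the letters and no evidence of binding.

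Within the Notch pathway the receptors and targets differed in direction. Of 11 measured members 2 were at least 2-fold higher in pericytes and 2 lower, against 8.79% and 8.04% of all genes. Notch1 stood at 303 against 91.5 CPM (1.72, 1.30 to 2.16) and the target Heyl at 440 against 243 CPM (0.85, 0.56 to 1.15). The ligand Jag1 was near equal at 377 against 361 CPM (0.06, -0.22 to 0.34). The targets Hey2 (12 against 58 UMIs, -1.54) and Nrarp (4 against 156 UMIs, -4.55) were lower.

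In the PDGF pathway the receptor side was higher and the ligand side lower in pericytes, with 3 of 6 measured members at least 2-fold higher and 3 lower by that fold. Pdgfrb stood at 2155 against 836 CPM (1.37, 1.22 to 1.51), and the coreceptor Nrp1 at 921 against 365 CPM (1.34, 1.11 to 1.56). The ligand Pdgfa stood at 172 against 578 CPM (-1.75, -2.11 to -1.40), and Pdgfb had 1 against 43 UMIs. Of 21 measured genes of TGFβ and BMP signalling 3 were at least 2-fold higher and 8 lower, against 8.79% and 8.04% of all genes. The ligand Tgfb1 stood at 157 against 32.7 CPM (2.26), while Tgfb2 had 6 against 130 UMIs (-3.70) and the BMP target Id4 13 against 388 UMIs (-4.16). Angpt1, the angiopoietin that mural cells supply to endothelium, had 7 against 65 UMIs (-2.48).

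The basement membrane genes were higher in pericytes, with 11 of 20 measured members at least 2-fold higher, 3 at least 2-fold lower and a median log2 ratio of 1.15. The collagen IV chains Col4a1 and Col4a2 stood at 3389 against 1410 CPM (1.27, 1.15 to 1.38) and 1687 against 669 CPM (1.33, 1.17 to 1.50). The laminin chains differed in direction. Lama2 (224 against 47.1 CPM, 2.25) and Lamb1 (455 against 101 CPM, 2.18) were higher in pericytes, and Lama5 (2 against 92 UMIs) and Lamb2 (93.6 against 353 CPM, -1.92) were lower. Of the interstitial matrix genes Eln, the elastin of artery walls, stood at 84.9 against 1379 CPM (-4.02), Col6a3 at 1772 against 473 CPM (1.90) and Mgp, an inhibitor of calcification, at 1813 against 570 CPM (1.67). The laminin-binding integrin Itga6 had 39 against 3 UMIs (4.44).

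The Myh11 limit of the rule did not mark the step in most pericyte and lipid genes shown, while the contractile genes and some others already differed on either side of it. Control cells that met every other part of the marker rule were grouped by Myh11 UMIs, 52 at 0, 36 at 1, 49 at 2 to 5 and 58 at 6 or more, with the last 2 groups outside the rule. Kcnj8 stood at 1816, 1487, 1439 and 244 CPM in that order, so the drop lay between the last groups (log2 ratio -2.56, -2.84 to -2.28) and not at the limit. Gipr stood at 236, 212, 217 and 10.0 CPM and Fabp4 at 18528, 21260, 19901 and 4948 CPM. Acta2 in contrast stood at 60.03, 389, 831 and 7234 CPM and Tagln at 161, 487, 977 and 5847 CPM, with a step at every group. From 0 to the group at 2 to 5 the log2 ratio was -0.13 for Gipr, 0.10 for Fabp4 and 3.79 for Acta2. It was 0.60 for Rgs5 (0.52 to 0.68) and 0.69 for Myl9, and below 0 for Emcn (-1.25) and Plat (-2.40, -3.63 to -1.34). Over the 15 leading genes it ran from -1.21 (Fam13a) to 0.08 (Cpm). Only Fam13a passed 2-fold, so most leading genes were not particular to cells low in Myh11. Depth moved with Myh11, the median being 4822 UMIs in pericytes and 8231 in the 107 cells with 2 or more Myh11 UMIs, and its part in these steps was not tested.

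**Figure D3:**
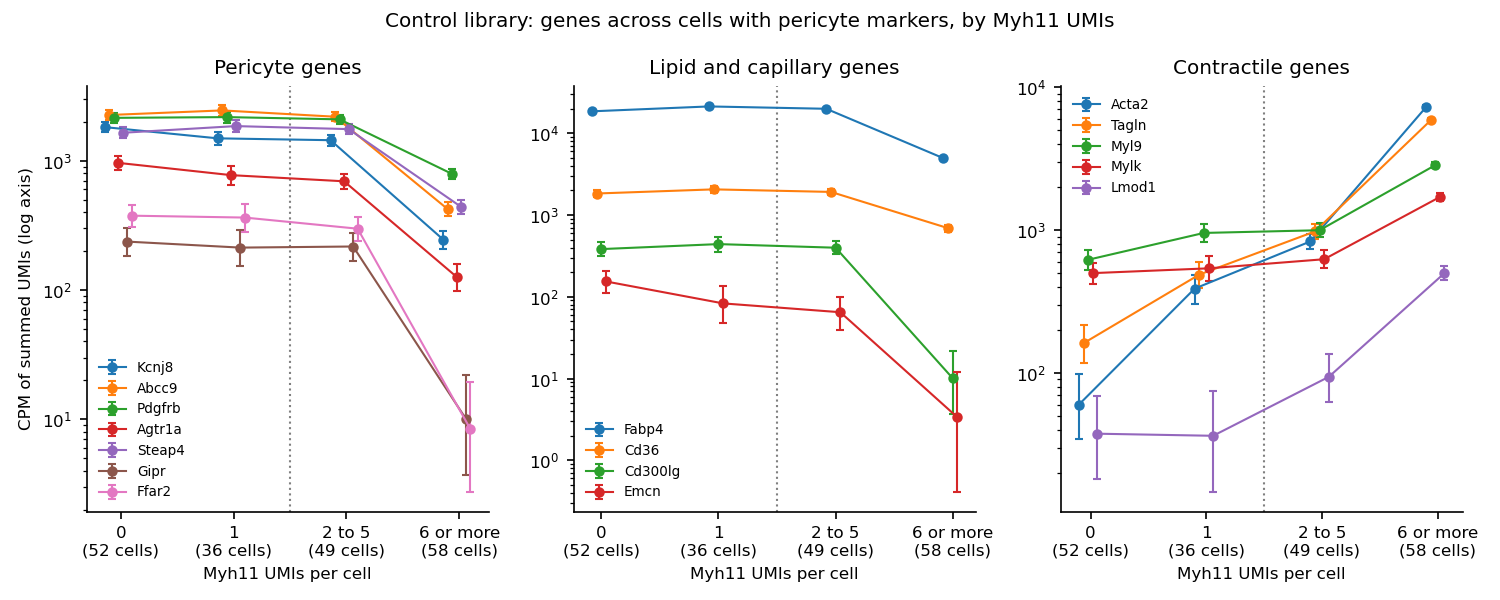
CPM of summed UMIs (log axis) of pericyte, lipid and capillary, and contractile genes in control cells with pericyte markers, grouped by Myh11 UMIs per cell; bars are exact 95% Poisson intervals of counting error, and the dotted line is the Myh11 limit of the rule. The pericyte and lipid genes change little up to 2 to 5 UMIs, except Emcn, which declines throughout, and all are lowest at 6 or more, whereas Acta2 and Tagln climb at every step.

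Lipid uptake genes were high in the pericytes. Fabp4, the fatty acid binding protein of adipocytes and capillary endothelium, was found in 85 of 88 control cells with 0 to 297 UMIs per cell and a median of 99. Its level was 19675 CPM in pericytes, 5298 in smooth muscle cells, 515 in fibroblasts, 340 in leukocytes and 20501 in endothelial cells. The fatty acid translocase Cd36 stood at 1926 CPM in pericytes against 790 in smooth muscle cells (1.29, 1.14 to 1.44), and the lipid droplet protein Plin2 at 803 against 85.0 CPM (3.24, 2.86 to 3.64). Of the 13 measured genes of the lipid uptake list 5 were at least 2-fold higher than in smooth muscle cells and 1 was lower, and the list summed to a log2 ratio of 1.71 (1.67 to 1.76). Pparg, the nuclear receptor that drives Fabp4 and Cd36 in fat, was found in 35 of 88 cells at 118 CPM, against 53.6 CPM in smooth muscle cells.

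A few endothelial genes were shared with the endothelium and the defining ones were not. The pericyte level was 96.0% of the endothelial level for Fabp4, 91.9% for Cd300lg, 60.9% for Cd36, 50.6% for the adhesion molecule Esam and 38.0% for the sialomucin Emcn. The VEGF receptor Kdr had 0 UMIs in pericytes, as had Cdh5, which the rule set to 0. Pecam1 had 6 UMIs in 2 cells (0.871% of the endothelial level), and Flt1, Cldn5, Tie1, Egfl7, Ptprb, Aqp1 and Gpihbp1 reached at most 1.26% of it. The defining endothelial genes were thus at or near 0 where Fabp4 and Cd300lg stood near the full endothelial level. In the 76 pericytes without any UMI of Pecam1, Kdr, Cldn5, Flt1, Tie1 or Egfl7, Fabp4 stood at 20020 CPM and Cd300lg at 426 CPM. Only 2 pericytes held 2 or more of these 6 genes.

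**Figure D4:**
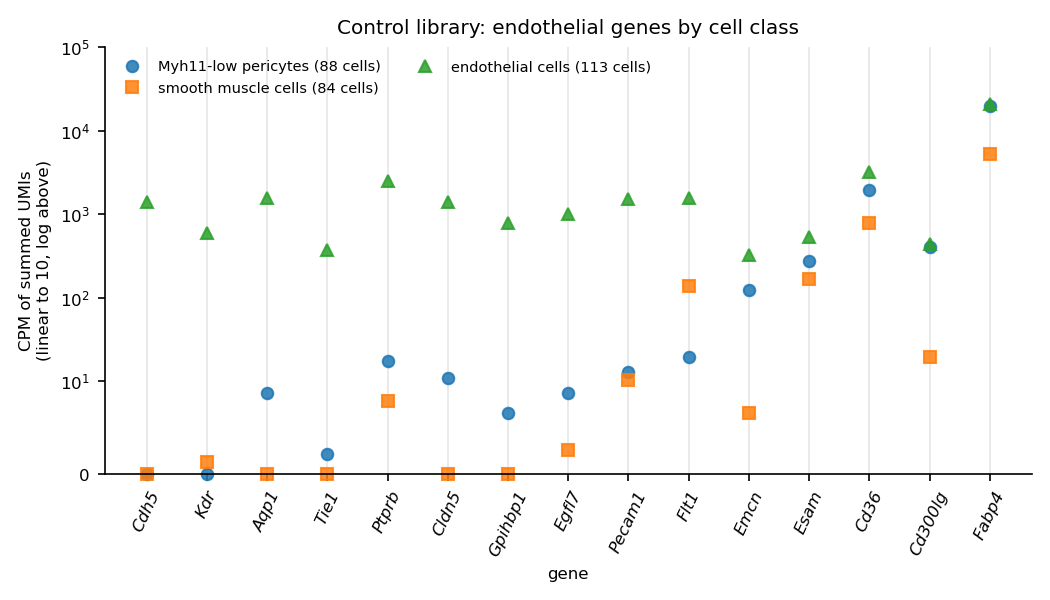
CPM of summed UMIs of 15 endothelial genes in Myh11-low pericytes, smooth muscle cells and endothelial cells of the control library, on an axis that is linear up to 10 CPM and logarithmic above. From Cdh5 to Flt1 the pericytes lie at or below 1.26% of the endothelial level, and at Cd300lg and Fabp4 they overlie it.

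Among the RNA of respiratory chain genes, the pericytes held transcripts of the isoforms known for hypoxia and mural cells. The genes of a pair can differ in capture and mapping, so shares are compared between classes only. Cox4i2, the hypoxia isoform of a cytochrome c oxidase subunit, made up 45.4% of Cox4i1 and Cox4i2 UMIs in pericytes (40.6% to 50.2%), 16.5% in smooth muscle cells, 0.309% in fibroblasts and 0.983% in endothelial cells. Ndufa4l2 made up 96.2% (93.8% to 97.8%) of its pair with Ndufa4 in pericytes, 67.2% in smooth muscle cells and 4.04% in fibroblasts. Higd1b, a mural relative of the hypoxia gene Higd1a, made up 93.4% of their pair in pericytes and 84.2% in smooth muscle cells. The KO pericytes had 10 Cox4i2 beside 7 Cox4i1 UMIs, 11 Ndufa4l2 beside 0 Ndufa4 and 18 Higd1b beside 0 Higd1a.

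Against fibroblasts and endothelial cells the pericyte list stood well above the background. The background genes needed at least 50 UMIs over both classes and the list members 10. Of 10274 genes tested against fibroblasts 11.9% were at least 2-fold higher in pericytes and 12.4% at least 2-fold lower, while 25 of 29 pericyte markers outside the rule were higher and 3 lower (median 3.20). Of 4342 genes tested against endothelial cells 13.4% were at least 2-fold higher and 17% lower by that fold, and 26 of 27 pericyte markers were higher and 1 lower (median 5.20). Of the basement membrane genes 4 of 21 were higher and 7 lower against fibroblasts, and 9 of 20 were higher and 4 lower against endothelial cells. Of the fibrillar matrix genes 12 of 22 were at least 2-fold lower than in fibroblasts, and 15 of 20 at least 2-fold higher than in endothelial cells.

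Depth divided the control pericytes. The 16 control cells with at most 2731 UMIs, the depth of the second deepest KO cell, were set against the 72 deeper ones. The shallow cells held 54 of the 91 Acta2 UMIs, at 2359 against 84.8 CPM (log2 ratio 4.80, 4.17 to 5.44), and Tagln stood at 1485 against 236 CPM (2.65). Kcnj8 was lower in the shallow cells at 481 against 1741 CPM (-1.86, -2.87 to -1.01), and Rgs5 higher at 11577 against 8523 CPM. Malat1, a nuclear RNA, stood at 5985 against 46929 CPM (-2.97) and Gm42418, which overlaps a ribosomal RNA locus, at 71688 against 26710 CPM (1.42). Fabp4 differed little, at 16295 against 19852 CPM (-0.28, -0.44 to -0.14). A Myh11 UMI, which the rule limits to 1 per cell, was found in 6 of the 16 and 30 of the 72 cells. By CPM, Myh11 stood at 262 in the shallow and 68.7 in the deeper cells (1.93, 0.38 to 3.22). A limit of 1 UMI allows a higher CPM in a shallower cell.

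The targeted gene came first in the comparison of the libraries. Pgam1, the glycolytic phosphoglycerate mutase deleted in adipocytes (chr19:41911923-41918660, GRCm38), had 58 UMIs in 44 of 88 control pericytes and 3 UMIs in 2 of 6 KO pericytes. The levels were 126 and 164 CPM, a log2 ratio of KO to control of 0.38 (-1.94 to 2.00), which turned to -0.17 with edgeR TMM scaling factors. The paralog Pgam2 had 1 UMI in the control and 0 in the KO pericytes. A Pgam1 difference within that interval was not detectable in pericytes at this depth, and the gene does not check the labels here, since Adipoq-Cre is not aimed at these cells.

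The 6 KO pericytes are given cell by cell, from the deepest to the shallowest. They had 10223, 2731, 1516, 1504, 1411 and 871 UMIs, so the deepest gave 56.0% of all KO pericyte UMIs. Rgs5 had 115, 16, 19, 7, 8 and 5 UMIs, and Abcc9 17, 2, 2, 3, 2 and 0. Both genes are in the rule. Kcnj8 had 1, 4, 0, 0, 1 and 0 UMIs, Acta2 28, 0, 5, 0, 0 and 6, and Fabp4 405, 90, 0, 10, 0 and 26. Acta2 was thus in 3 KO cells, with 28 of its 39 UMIs in the deepest, and the 1 Kcnj8 UMI of that cell lay below the median of 8 over the control cells. Tagln had 18, 0, 0, 0, 3 and 6 UMIs. The shallowest cell had 1 Myh11 UMI and 0 of Notch3, Kcnj8, Abcc9 and Pdgfrb, so its 5 Rgs5 UMIs alone met the marker sum. Whether the raw Myh11 limit admits shallow smooth muscle cells was not tested, so the name pericyte is by rule only.

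Of 4484 genes with at least 20 UMIs over both libraries, 560 were at least 2-fold higher in KO pericytes (12.5%) and 76 lower by that fold (1.69%). The excess of higher genes rests on few molecules, since 511 of the 560 had under 10 KO UMIs, and a gene needed at least 152 control UMIs to be able to count as lower. Among the 402 genes with that many control UMIs 25 were higher and 76 lower. The counting interval excluded 0 for 130 of the higher and 41 of the lower genes. With edgeR TMM factors, which shift every ratio by -0.55, the counts were 162 higher and 252 lower, so the direction of the balance depends on the scaling. Without the deepest KO cell 802 genes were higher and 31 lower, of which 353 and 18 were the same genes.

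The 10 largest rises were in Procr, Acta2, Mgst3, Ebna1bp2, 1110059G10Rik, Lmod1, Cops3, Ndn, Csrp1 and Dpm1, on 4 to 39 KO UMIs. Acta2 stood at 2136 CPM in KO and 198 CPM in control pericytes (39 against 91 UMIs, log2 ratio 3.43, 2.85 to 3.99). Procr, the endothelial protein C receptor, had 8 against 18 UMIs (3.48, 2.07 to 4.76), 6 of the 8 in the deepest KO cell. Csrp1, a muscle LIM protein, had 16 against 63 UMIs (2.68, 1.78 to 3.49), 10 of them in the deepest cell, and all 5 Lmod1 UMIs lay in that cell.

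The 10 largest falls were in Zbtb20, Hba-a1, Hba-a2, Hbb-bs, Kcnj8, Jun, Itih5, Aspn, Dpysl2 and Ccl11. Kcnj8 stood at 329 against 1678 CPM (6 against 771 UMIs, -2.35, -3.80 to -1.22), and Zbtb20, a transcriptional repressor, had 2 against 556 UMIs. Aspn, the matrix proteoglycan asporin, had 7 against 688 UMIs (-1.97, -3.29 to -0.91), with at least 1 UMI in 5 of 6 KO cells. The haemoglobin genes Hba-a1, Hba-a2 and Hbb-bs are near-identical copies within their families, and 1 control cell held 1123 of the 1401 Hbb-bs UMIs. Over all barcodes that met the marker rule, with no filter, the log2 ratio turned to 1.11 for Hba-a1 and 0.98 for Hbb-bs, with Hba-a2 between them. The erythroid list stood at 931 CPM in KO and 5639 CPM in control pericytes (-2.60), but at 1210 CPM in the control without the cell richest in haemoglobin. Its log2 ratio was -4.57 in smooth muscle cells, -2.14 in endothelial cells, -1.47 in leukocytes and -0.36 in fibroblasts.

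The Acta2 and Kcnj8 differences were then read at like depth, for the 5 shallower KO cells only. The deepest KO cell, with 10223 UMIs, was left out of that reading and held 28 Acta2 UMIs and 1 Kcnj8 UMI. The control pericytes nearest to it in depth, with 10711 and 10096 UMIs, held 0 and 3 Acta2 UMIs and 11 and 16 Kcnj8 UMIs. When the 5 shallower KO cells were set against the 16 control pericytes no deeper than they were, the KO to control ratio on the log2 scale was 0.37 for Kcnj8 (-1.50 to 2.02) and -0.78 for Acta2 (-1.87 to 0.17), so that neither interval excluded 0. Tagln was at -0.41 (-1.65 to 0.68), Abcc9 at -0.32 (-1.57 to 0.78) and Fabp4 at -0.05 (-0.36 to 0.24). The intervals of Pdgfrb (3 against 42 UMIs, -2.30, -4.63 to -0.65), Rgs5 (-0.76, -1.20 to -0.33) and Agtr1a (1 against 21 UMIs, -2.88, -8.25 to -0.25) lay below 0 in the same cells. Over all barcodes that met the marker rule, with no filter, Kcnj8 was at -2.89 (10 against 873 UMIs, -3.95 to -2.00). It was -0.87 in cells with 2 to 5 Myh11 UMIs (-1.69 to -0.16), -0.07 in smooth muscle cells (-0.71 to 0.52), -1.04 in fibroblasts (-2.57 to 0.20) and -2.11 in leukocytes (-2.75 to -1.52). The leukocyte value is not particular to Kcnj8, since Rgs5 (-2.42), Notch3 (-1.74) and Abcc9 (-3.90) were lower there too. The Rgs5 and marker sum limits were met by 54 of 1893 control and 4 of 509 KO leukocytes.

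**Figure D5:**
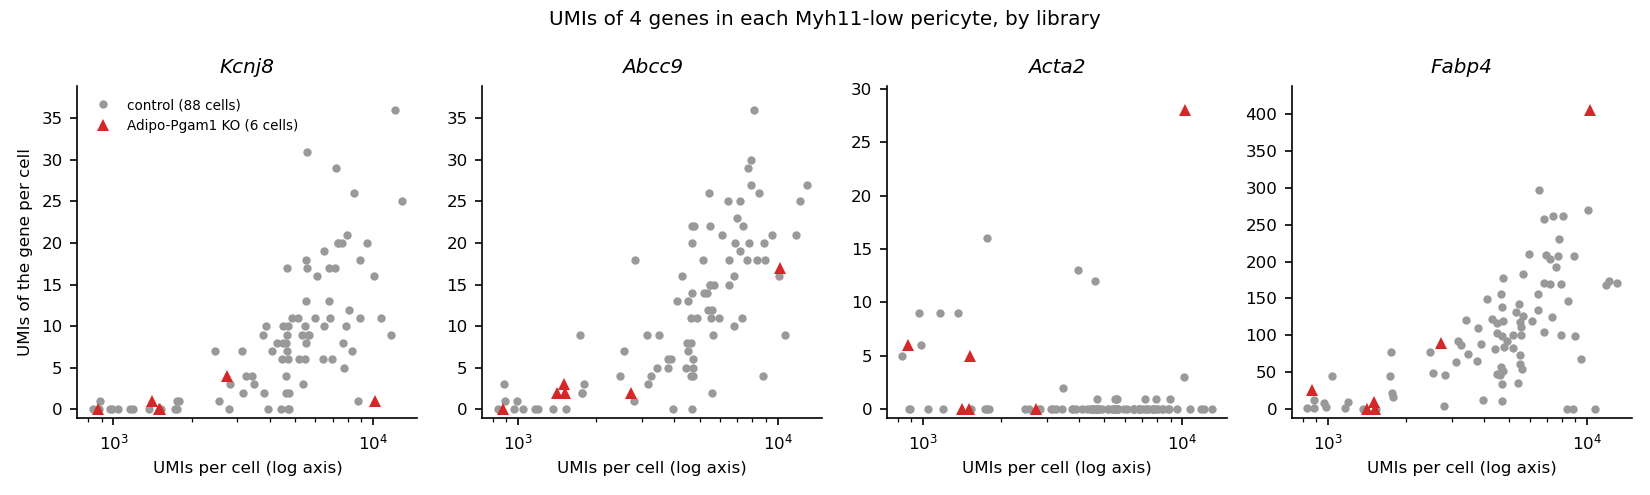
UMIs of Kcnj8, Abcc9, Acta2 and Fabp4 (vertical axes) in each Myh11-low pericyte against the UMIs of that cell (log axis), control cells as grey circles and Adipo-Pgam1 KO cells as red triangles. Of the 6 KO cells 5 lie at or below 2731 UMIs, where most control cells also have 0 or 1 Kcnj8 UMI and where 54 of the 91 control Acta2 UMIs lie.

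By list, the contractile genes, here with Acta2 and Tagln and without Myh11, had a median log2 ratio of KO to control of 0.96. Of 17 measured members 8 were at least 2-fold higher and 0 lower, against 12.5% and 1.69% of all genes with at least 20 UMIs. List members needed only 10 UMIs, so the minimum is unlike. The deepest KO cell gave 65.5% of the KO UMIs of the contractile list. Without that cell the median was 1.10 and the summed UMIs gave 0.79 (0.49 to 1.07). The median was 0.41 with TMM factors and, for the 5 shallower KO cells against control cells of like depth, -0.16. The pericyte markers outside the rule had a median of -0.20, which turned to 0.11 without the deepest KO cell, with 0 of 27 higher and 1 lower. The basement membrane genes had a median of 0.14, which turned to -0.41 with TMM factors, with 0 of 18 higher and 1 lower, while their summed UMIs gave -0.37 (-0.55 to -0.19), so the median and the sum differ in sign. Of the 18 fibrillar matrix genes 1 was higher and 6 were lower (median -0.85). Only genes with at least 152 control UMIs could count as lower, and 76 of 402 such genes did.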

How the data were processed

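Per the submitters' processing notes the authors used Cell Ranger 3.0.1 and mm10, and Seurat 3.1.5 with R 4.0.1. The deposited counts are whole UMIs per gene and barcode, not normalized, for barcodes with at least 500 UMIs. The other data of the study were not analysed here. From these counts the UMIs of each class and library were added up and divided by their total (CPM), with exact Poisson, Clopper-Pearson and conditional binomial intervals (95%). With 1 library per genotype nothing was tested, and a fixed 2-fold difference stands in for a call. Shares over all genes took a minimum of 20 UMIs between libraries and 50 between classes, while list members needed 10. The members, the class rules and the 35 gene lists (552 genes, 6 absent from the files) were chosen with earlier results of these data known.

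Fibroblasts had at least 2 Pdgfra UMIs, endothelial cells Cdh5 and Pecam1 without Prox1, and leukocytes Ptprc. Each class had 0 UMIs of those of Pdgfra, Ptprc, Cdh5 and Msln that did not define it. Pericyte markers were not excluded. In the control library 73 of 84 smooth muscle cells met the Rgs5 and marker sum limits. So did 15 of 714 fibroblasts, 10 of 113 endothelial cells and 54 of 1893 leukocytes. A count under 3 was set to 3 before a fold was called, only where that moved the ratio toward 0; for list medians it was set to 3 on both sides. With it on both sides of a call 2306 genes counted as higher in KO pericytes, since a KO count of 0 was then raised. Genes were named by rule: Pgam1 and Pgam2, the 10 largest rises and falls between libraries, the 15 leading genes over other classes, the 10 highest and lowest against smooth muscle cells, and members of the lists with at least 10 UMIs. Doublets were kept. As an alternative the cells with the highest Scrublet scores were removed. Their number was set in advance from the barcode total of each library and is no measured doublet rate. It was 265 of 3881 control cells (6.83%) and 21 of 958 KO cells (2.19%), among them 6 control and 0 KO pericytes. Gene positions come from a GENCODE annotation of GRCm38 (28339 of 28692 IDs found), and promoters from RefSeq. The tools were edgeR 4.0.16 in R 4.3.3, scanpy 1.11.5 and, in Python 3.11.15, scipy 1.17.1 with numpy 2.4.6, matplotlib 3.10.9 and pandas 2.3.3, and the scripts were tested on simulated data.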

Additional observations from a re-analysis of the deposited data

How the results depend on the processing

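Over 10 results and 22 settings, 109 of 136 alternative values lay within the counting interval of the reported one, or for counts of genes within 1.5 times of it, and 27 did not. The sign changed in 19 values, none of them of a median against smooth muscle cells: 7 of the basement membrane median, 6 of the Pgam1 ratio, 5 of the pericyte marker median and 1 of the contractile median, all KO to control. The depth of 18256 KO UMIs limits every comparison of the libraries. The median against smooth muscle cells stayed between -2.89 and -1.77 for contractile genes and between 0.56 and 1.09 for pericyte markers. Genes at least 2-fold higher and lower in KO pericytes numbered 354 and 201 with a filter of 200 genes and 20% mitochondrial UMIs, 231 and 11 with cells thinned to 2000 UMIs, 162 and 252 with TMM factors and 160 and 269 with median-of-ratios factors. Higher genes numbered 1054, 158 and 1509 with a minimum of 10, 50 and 4 UMIs. Lower genes numbered 13 with a filter of 1000 genes and 5% mitochondrial UMIs, 27 with Myh11 at 0 and 545 with counts under 1 set to 1. Of the alternatives chosen after seeing the data, counts set to 3 in both libraries gave 2306 higher, leaving out the deepest KO cell 31 lower, no cell filter 260 higher and 433 lower, and control cells of like depth 19 higher and 35 lower of 214 genes, with a contractile median of -0.16. The control share was 1.47% with the filter of 1000 genes, 1.34% with Myh11 at 0 and 2.87% with no filter, and the KO share 0.233%, 0.313% and 1.17%. With the filter of 1000 genes and 5% the KO to control medians were 1.34 for pericyte markers and 2.12 for basement membrane genes, and the latter was 1.36 with Myh11 at 0; the cause was not tested. The Pgam1 ratio had no value with the filter of 1000 genes or after thinning, because no KO UMI was left. No paired analysis was possible because each genotype has 1 library.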
